A study of Rattus norvegicus with 26 samples.

Results

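Transcript levels of 8 voltage-gated sodium channel subunits were followed in the rat spinal cord after clip compression injury and intrathecal transplantation of mesenchymal stem cells from human umbilical cord (hUC-MSCs). The members were the genes of the deposited count table whose symbol is Scn1a, Scn2a, Scn3a, Scn8a or Scn9a, which encode pore-forming alpha subunits, or Scn2b, Scn3b or Scn4b, which encode auxiliary beta subunits. This gave 8 of 32883 genes, listed under ENSRNOG00000053122 (Scn1a), ENSRNOG00000005018 (Scn2a), ENSRNOG00000005007 (Scn3a), ENSRNOG00000005309 (Scn8a), ENSRNOG00000006639 (Scn9a), ENSRNOG00000016221 (Scn2b), ENSRNOG00000057221 (Scn3b) and ENSRNOG00000026679 (Scn4b). All 8 passed the filter on low counts, and none had fewer than 98 read counts in any library.

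Voltage-gated sodium channels open when the membrane depolarizes and carry the inward current of the rising phase of the action potential. The alpha subunit forms the pore and the voltage sensors, while the beta subunits span the membrane once, shift gating and surface expression, and act as adhesion molecules. In the central nervous system the channels cluster at axon initial segments and nodes of Ranvier, where ankyrin-G and beta-IV spectrin hold them.

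The 26 libraries came from 5 mm spinal cord segments centred on the lesion, from wild-type adult female Sprague-Dawley rats of 250 g that the labels all place at postnatal day 70, although the groups were taken at different times. Intact (n = 4) held uninjured cord, which the study's methods describe as intact or sham. In the other groups an aneurysm clip of 60 g closed on the cord at T10 for 1 min. The sub-SCI group (n = 3) is the state at which transplantation was done, 0 weeks after it. The remaining rats received PBS or hUC-MSCs intrathecally 7 days after injury and were taken 1, 2 or 4 weeks post transplantation (wpt), as +PBS-1w (n = 3), +PBS-2w (n = 2), +PBS-4w (n = 4), +MSC-1w (n = 3), +MSC-2w (n = 3) and +MSC-4w (n = 4). The methods give daily cyclosporin A to rats over the whole experiment, without saying whether Intact rats had it. Poly(A) RNA was sequenced from whole segments, so fewer neurons and less transcript per neuron cannot be told apart in any of these values.

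Each library held 19496602 to 43468509 counts. Levels are CPM, counts scaled to a common library total, on library sizes scaled by the trimmed mean of M-values, and comparisons between genes use RPKM, which is CPM per 1000 bases of the gene's length. A gene passed when its adjusted p, given by edgeR's quasi-likelihood test and adjusted after Benjamini and Hochberg over 17990 genes, was under 0.05, and a differentially expressed gene (DEG) also needed an absolute log2 fold change over 1 and an adjusted p under 0.01. A percentage of genes printed after a count of members is the share of all genes tested that met the same rule in the same direction. The summed level of 15 neuron markers was 14222 to 16923 CPM in Intact, 889 to 3408 in sub-SCI, and 1824 to 4104, 3928 to 7397 and 2524 to 9183 in the +PBS groups at 1, 2 and 4 wpt, against 5431 to 10556, 8718 to 12838 and 8502 to 10385 in the +MSC groups. No neuron marker was at 0 in any library. A pair of libraries stood apart. In +MSC-4w replicate 2 the sensory ganglion markers summed to 49.4 CPM, against 11.2 to 33.3 in the other 25 libraries, and in +PBS-4w replicate 1 the neuron markers summed to 9183 CPM, the highest of its group.

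In Intact cord, Scn4b had the highest level per length, at 131 RPKM, followed by Scn8a at 38.8, Scn2b at 34.2 and Scn1a at 24.0. Scn3b (13.4 RPKM), Scn2a (10.3), Scn3a (4.62) and Scn9a (2.04) were lower. Only the ranges of Scn8a and Scn2b overlapped among neighbours in this order. The 5 alpha subunits summed to 79.7 ± 11.3 RPKM (SD, n = 4) and the 3 beta subunits to 179 ± 15.2. In RefSeq's rat annotation Scn3a and Scn2a are neighbouring coding genes, as are Scn1a, Scn9a and Scn7a on the same chromosome, and Scn2b lies next to Scn4b.

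Promoter sequence, the 250 bases before the annotated start, was found in RefSeq (build GRCr8) for 6 of the 8 members, with Scn1a and Scn3b the exceptions. The 3 shown belong to Scn8a (chr7:133860977-133861226, plus strand) and Scn4b (chr8:54343623-54343872, plus strand), which fell more than the median member in sub-SCI, and to Scn9a (chr3:71701378-71701627, minus strand), the only member whose highest group mean was not Intact. They read 5′ to 3′ on the gene's strand, with capitals at each GGGCGG match on either strand.
Scn8a: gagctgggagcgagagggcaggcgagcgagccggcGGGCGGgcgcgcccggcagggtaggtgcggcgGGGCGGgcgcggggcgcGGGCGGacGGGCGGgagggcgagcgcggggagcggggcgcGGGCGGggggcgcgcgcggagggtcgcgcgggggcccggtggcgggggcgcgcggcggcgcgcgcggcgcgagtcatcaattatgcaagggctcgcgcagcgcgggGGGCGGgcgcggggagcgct
Scn4b: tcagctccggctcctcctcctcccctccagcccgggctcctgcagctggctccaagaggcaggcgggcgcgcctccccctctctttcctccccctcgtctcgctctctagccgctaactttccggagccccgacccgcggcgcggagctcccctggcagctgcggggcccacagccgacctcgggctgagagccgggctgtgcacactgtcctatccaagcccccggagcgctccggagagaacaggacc
Scn9a: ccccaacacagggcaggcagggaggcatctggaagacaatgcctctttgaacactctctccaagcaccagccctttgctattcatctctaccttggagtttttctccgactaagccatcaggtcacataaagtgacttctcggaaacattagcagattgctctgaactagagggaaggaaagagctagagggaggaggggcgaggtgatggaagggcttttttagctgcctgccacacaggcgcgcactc

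The Scn8a promoter was 86.0% G and C and held 6 GGGCGG matches, all on the strand shown. Scn4b (71.6%) and Scn9a (52.4%) held none, and neither did Scn2a (39.6%), Scn3a (41.6%) or Scn2b (38.8%). Of 33469 promoters of the same length, 30.5% held GGGCGG on either strand, 12.9% held TATAAA on either strand, and the median was 51.2% G and C. TATAAA was in none of the 6 windows. The neighbouring Scn2b and Scn4b differed widely in base composition.

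All 8 members were lower after clip injury. In sub-SCI against Intact all 8 fell, where 30.9% of all genes tested passed in that direction, and all 8 were DEGs, a rule met by 17.5% of genes. No member's ranges overlapped between the groups, as in 34% of genes. The median log2 fold change of the members was -2.63, against -0.0178 over all genes.

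Scn1a, an alpha subunit best known from fast-spiking inhibitory neurons, measured 313, 246, 337 and 247 CPM in the Intact libraries and 10.6, 27.0 and 3.32 in sub-SCI. This was a 20.9-fold lower level, with a log2 fold change of -4.39 ± 0.48 (SE) and an adjusted p of 1.12e-07 by edgeR's quasi-likelihood test. Scn8a, the main alpha subunit of mature nodes of Ranvier and initial segments, measured 305, 233, 304 and 220.2 CPM in Intact and 16.3, 24.9 and 9.73 in sub-SCI. It fell 15.6-fold, with a log2 fold change of -3.97 ± 0.39 and an adjusted p of 1.94e-08. For both genes even the highest sub-SCI library lay far below the lowest Intact library. Scn2a, which serves initial segments and unmyelinated axons early in development, went from 97.9, 83.8, 93.9 and 85.6 CPM to 14.8, 19.5 and 8.10, a log2 fold change of -2.68 ± 0.31 (adjusted p = 2.18e-07). Scn3a, the alpha subunit most abundant before birth, went from 32.1, 30.7, 32.8 and 30.4 CPM to 8.14, 9.90 and 6.48, a log2 fold change of -1.95 ± 0.27 (adjusted p = 2.06e-06). Scn9a, known for its role in pain-sensing neurons of the dorsal root ganglia, went from 18.6, 17.9, 18.4 and 21.2 CPM to 7.47, 5.91 and 4.98, a log2 fold change of -1.63 ± 0.34 (adjusted p = 0.000312). Within sub-SCI, replicate 3 was the lowest library for all 8 members, and it also had the lowest neuron marker sum.

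Among the beta subunits, Scn4b, which is linked to resurgent sodium current, measured 589, 516, 612 and 523 CPM in Intact and 51.0, 66.8 and 20.0 in sub-SCI, 12.2-fold lower (log2 fold change -3.61 ± 0.38, adjusted p = 5.07e-08). Scn2b, whose product binds the alpha subunit through a disulfide bond, ranged over 31.2 to 40.0 CPM in Intact and 3.87 to 7.12 in sub-SCI, and its log2 fold change was -2.59 ± 0.22 (adjusted p = 2.68e-09 by edgeR). Scn3b, whose product binds the alpha subunit without such a bond, ranged over 48.3 to 57.2 CPM in Intact and 14.5 to 21.6 in sub-SCI. Its log2 fold change of -1.51 ± 0.24 (adjusted p = 1.47e-05) was the smallest of the 8. The plot of levels by library shows every value.

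**Figure D1:**
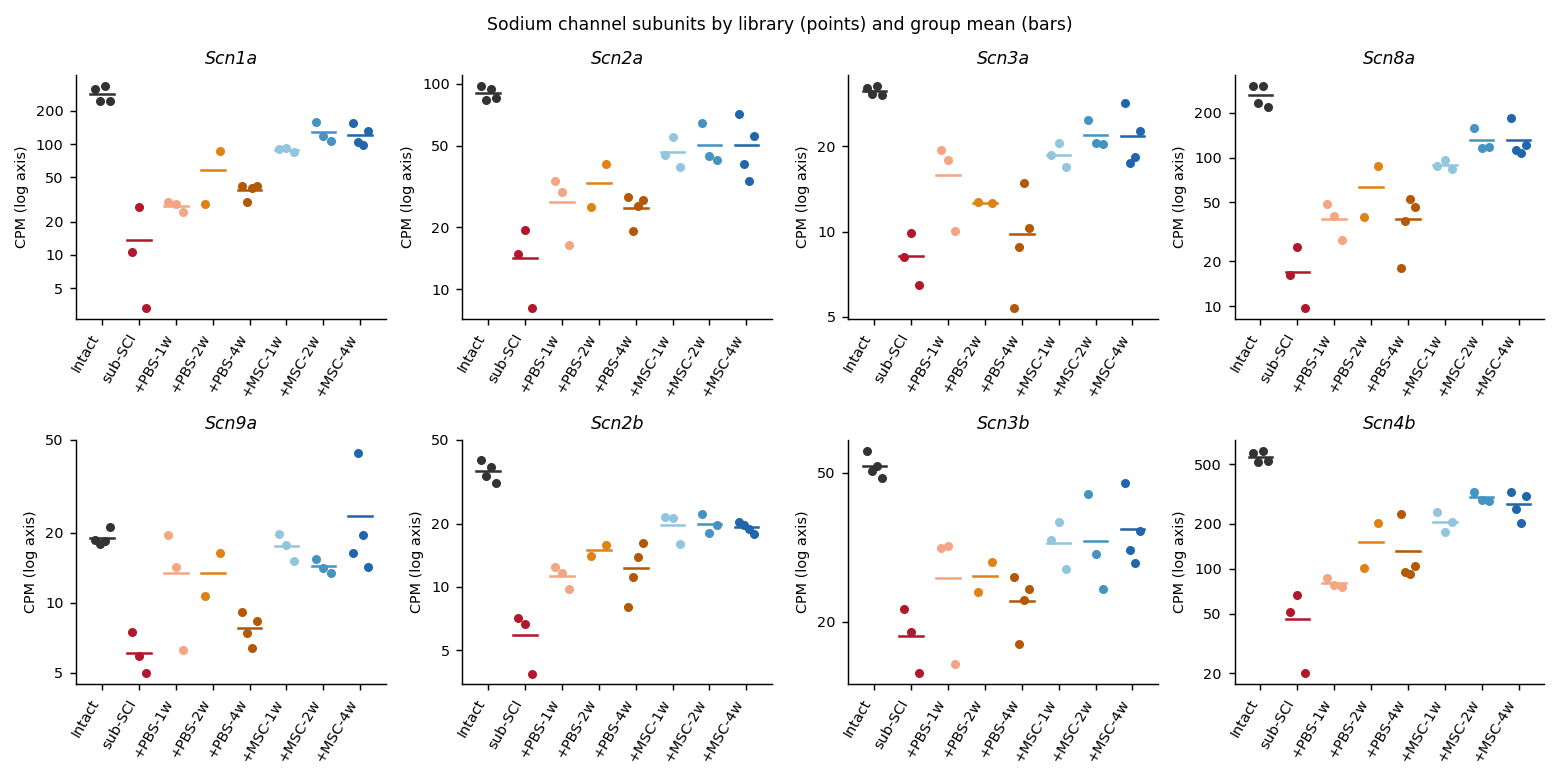
Level in CPM (log axis) of each subunit in each of 26 libraries, by group, with points for libraries and bars for group means. All sub-SCI points lie below all Intact points for the 8 genes, and the +MSC points of Scn1a, Scn2a, Scn8a and Scn2b lie above the +PBS points of the same week at 1, 2 and 4 wpt.

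The level that was left ranged widely between subunits. Mean levels in sub-SCI were 4.78% of Intact for Scn1a, 6.39% for Scn8a and 8.20% for Scn4b. The others were at 15.6% (Scn2a), 16.6% (Scn2b), 25.9% (Scn3a), 32.2% (Scn9a) and 35.2% (Scn3b). The neuron markers, of which 15 of 15 fell, summed to 14.5% of Intact, between Scn4b and Scn2a. As a percent of the neuron marker sum, Scn1a went from 1.81% ± 0.273 (SD, n = 4) in Intact to 0.528% ± 0.230 (n = 3) in sub-SCI, and Scn4b from 3.56% ± 0.326 to 2.07% ± 0.156. Scn3b went the other way, from 0.330% ± 0.0148 to 1.01% ± 0.562, as did Scn9a, from 0.121% ± 0.0189 to 0.342% ± 0.198. With the mean log2 level of the neuron markers as a covariate, 6 of the 8 still passed, and Scn9a (-0.70, adjusted p = 0.397 by edgeR) and Scn3b (-0.29, adjusted p = 0.527) did not. In that fit the log2 difference was -3.04 for Scn8a, -2.35 for Scn1a and -2.16 for Scn2b.

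**Figure D2:**
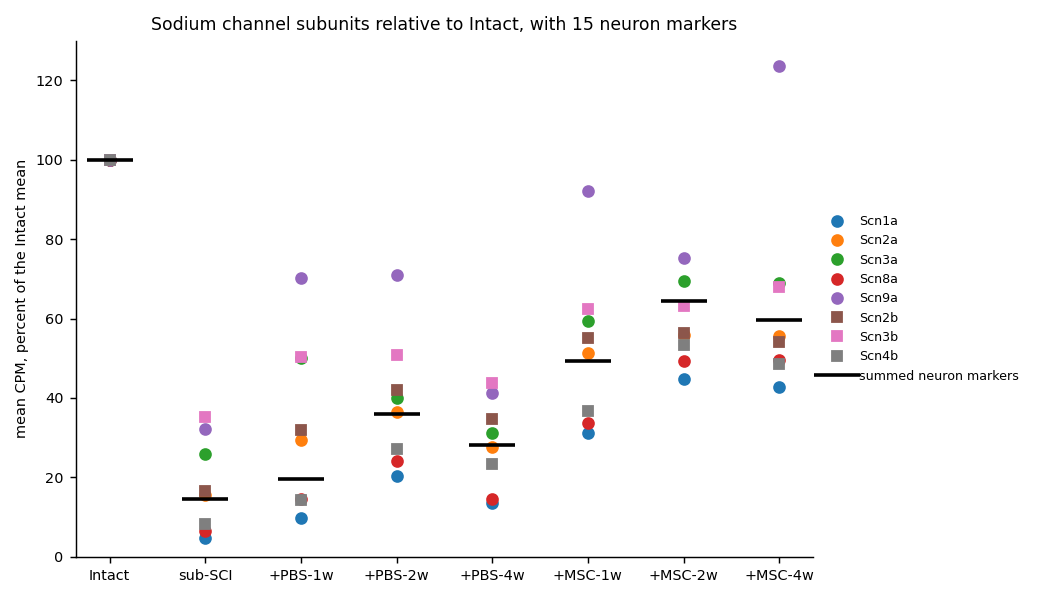
Group mean CPM of each subunit and of the summed 15 neuron markers, as percent of the Intact mean, in the 8 groups. In sub-SCI, Scn1a (4.78%) and Scn8a (6.39%) lie lowest and Scn3b (35.2%) highest, and Scn9a reaches 124% in +MSC-4w.

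The make-up of each class was read from RPKM. The alpha subunits summed to 7.09 ± 3.05 RPKM (SD, n = 3) in sub-SCI and the beta subunits to 21.1 ± 7.88. Scn1a and Scn8a together made up 78.6% of the alpha total in Intact (76.3% to 80.7% across 4 libraries) and 48.8% in sub-SCI (41.4% to 57.9% across 3). Scn1a alone was above Scn3b, Scn2a and Scn3a by mean RPKM in Intact and below all 3 in sub-SCI, at 1.15 RPKM there beside 1.20 for Scn3a, with overlapping ranges. Scn4b made up 73.4% of the beta total in Intact and 48.5% in sub-SCI.

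The members were also low in PBS-treated cord. At 1 wpt, 7 members had fallen against Intact (26.4% of genes), and 7 had ranges apart from Intact (30.5%). At 2 wpt 7 had fallen (17%) and 8 had ranges apart (31.3%). At 4 wpt all 8 had fallen (23.9%) and all 8 had ranges apart (21.3%). DEGs numbered 5, 6 and 8 at the 3 times (12.5%, 5.66% and 10.7% of genes). The member outside the count at 1 and 2 wpt was Scn9a, whose log2 differences were -0.51 ± 0.33 (adjusted p = 0.205) and -0.49 ± 0.38 (adjusted p = 0.322) by edgeR. At 4 wpt the log2 fold changes ran from -2.89 for Scn1a and -2.78 for Scn8a to -1.19 for Scn3b. The +PBS-2w group held only 2 libraries, and without its replicate 1 the count there was 3. With the neuron markers as covariate the counts were 4, 4 and 3.

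Between sub-SCI and +PBS-4w, 5 members rose: Scn1a, Scn2a, Scn8a, Scn2b and Scn4b (13.4% of genes), of which Scn2b and Scn4b were DEGs (4.28%). Scn4b went from 45.9 to 130.5 ± 67.4 CPM (SD, n = 4), a log2 fold change of 1.51 ± 0.34 (adjusted p = 0.00274 by edgeR). This set depended on the libraries fitted, with a count of 0 when only the compared groups entered edgeR, 2 without sub-SCI replicate 3 and 3 without sub-SCI replicate 1.

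hUC-MSC-treated cord was compared with PBS-treated cord of the same week, the contrast that asks whether transplantation changed the injured tissue. The +PBS libraries also serve the comparisons with Intact, so both sets of differences share them. At 1 wpt, 0 members passed by edgeR (0.0389% of genes passed as higher), 5 had an unadjusted p under 0.05 (10.6%), and 4 passed by DESeq2 on all libraries or on the compared groups. Ranges did not overlap for 5 members, Scn1a, Scn2a, Scn8a, Scn2b and Scn4b (15.3% of genes). Scn1a measured 30.0, 28.6 and 24.1 CPM in +PBS-1w and 89.5, 92.5 and 85.7 in +MSC-1w, a log2 difference of 1.69 ± 0.44 (adjusted p = 0.0818 by edgeR). Scn8a measured 48.4, 40.4 and 27.8 CPM in +PBS-1w and 87.9, 97.0 and 84.2 in +MSC-1w, a log2 difference of 1.20 ± 0.36 (adjusted p = 0.111). Scn4b measured 86.3, 77.4 and 75.1 CPM in +PBS-1w and 238, 174 and 206 in +MSC-1w, a log2 difference of 1.37 ± 0.35 (adjusted p = 0.0817). All +MSC-1w libraries were thus above all +PBS-1w libraries for these 3 genes, while the adjusted test was not passed.

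At 2 wpt, 0 members and 0% of all genes passed as higher by edgeR. An unadjusted p under 0.05 was reached by 4 members (5.49% of genes), and DESeq2 gave 0 on all libraries and 3 on the compared groups. Ranges did not overlap for 6 members, all but Scn9a and Scn3b (18.6% of genes). Scn8a measured 39.6 and 88.1 CPM in +PBS-2w and 158, 117 and 119 in +MSC-2w, a log2 difference of 1.04 ± 0.40 (adjusted p = 0.326). Scn1a measured 29.0 and 87.0 CPM in +PBS-2w and 158, 119 and 106 in +MSC-2w. The spread within +PBS-2w was wide for both, with replicate 2 inside the range of the +MSC-1w libraries.

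At 4 wpt, 5 members rose in +MSC-4w against +PBS-4w, and these were the 5 alpha subunits (3.07% of genes). Whether alpha and beta subunits differed in this was not tested. Scn8a and Scn9a were DEGs (0.495% of genes), and all 8 members had an unadjusted p under 0.05 (11.2%). Ranges did not overlap for 7 members, all but Scn4b (6.08% of genes). Scn8a measured 18.0, 37.6, 52.9 and 46.3 CPM in +PBS-4w and 186, 112, 107 and 122 in +MSC-4w, 3.41-fold higher, with a log2 fold change of 1.77 ± 0.31 (adjusted p = 0.00498 by edgeR). Scn1a measured 41.6, 30.0, 40.1 and 41.9 CPM in +PBS-4w and 154, 105, 98.5 and 130.2 in +MSC-4w, a log2 fold change of 1.67 ± 0.38 (adjusted p = 0.0179). For both genes the lowest +MSC-4w library exceeded the highest +PBS-4w library. Scn3a (5.37 to 14.9 against 17.5 to 28.4 CPM) had a log2 fold change of 1.15 ± 0.24 (adjusted p = 0.0102), and Scn2a (19.2 to 28.2 against 33.5 to 70.9 CPM) one of 1.01 ± 0.26 (adjusted p = 0.0346).

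The beta subunits at 4 wpt lay near the threshold. Scn2b measured 8.05, 11.2, 13.8 and 16.1 CPM in +PBS-4w and 20.3, 19.7, 18.9 and 17.8 in +MSC-4w (log2 difference 0.64 ± 0.18, adjusted p = 0.0520 by edgeR). Scn3b differed by 0.63 ± 0.22 (adjusted p = 0.0922). Scn4b measured 231, 94.6, 91.4 and 105 CPM in +PBS-4w and 327, 252, 201 and 306 in +MSC-4w, a log2 difference of 1.06 ± 0.30 (adjusted p = 0.0526). The overlap of the Scn4b ranges came from +PBS-4w replicate 1 at 231 CPM, a library in which Scn8a (18.0 CPM), Scn3a (5.37) and Scn2b (8.05) were the lowest of the group. Without that library the log2 fold change of Scn4b was 1.46 (adjusted p = 0.00322). The count of 5 became 8 by DESeq2 on all libraries, 2 without +MSC-4w replicate 1, 3 without +PBS-4w replicate 2, and 1 when edgeR was fitted to the compared groups.

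**Figure D3:**
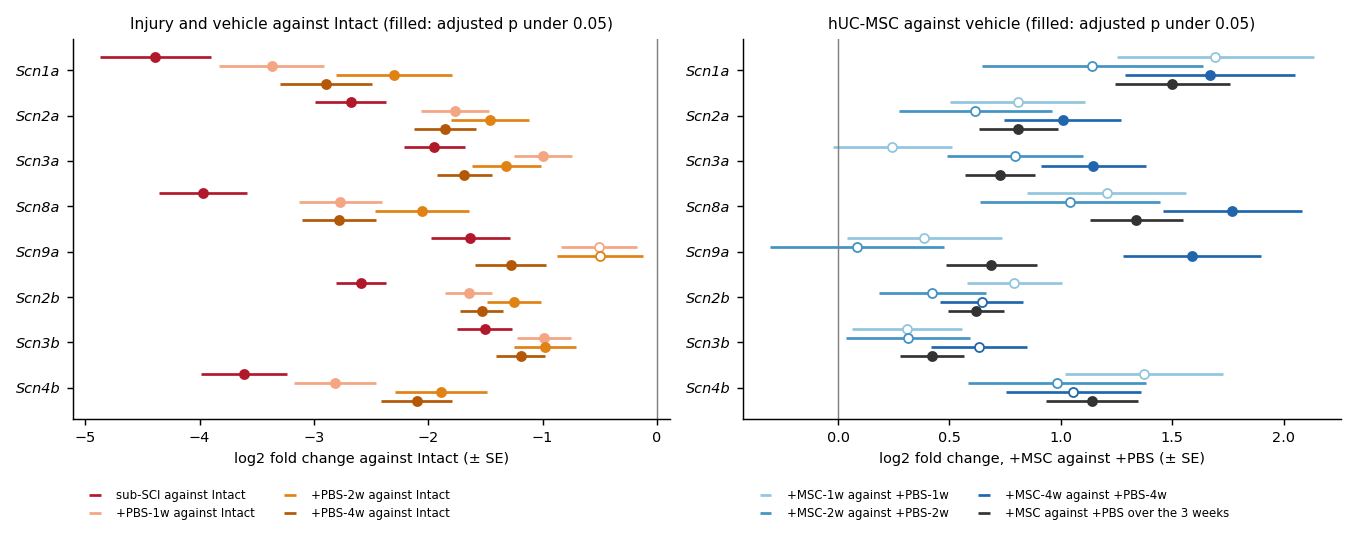
Log2 fold change with SE of each subunit, for sub-SCI and the +PBS groups against Intact (left) and for +MSC against +PBS at each week and over the 3 weeks (right). Filled points passed edgeR's test at an adjusted p under 0.05, as all 8 did in sub-SCI against Intact and over the 3 weeks, and 5 at 4 wpt.

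Scn9a was highest in +MSC-4w, where 1 library lay far above the others. It measured 9.13, 7.44, 6.40 and 8.35 CPM in +PBS-4w and 16.4, 43.9, 19.5 and 14.2 in +MSC-4w, a log2 fold change of 1.59 ± 0.31 (adjusted p = 0.00771 by edgeR). The 43.9 CPM in +MSC-4w replicate 2 was the highest value of Scn9a in any of the 26 libraries. In that library Scn10a and Scn11a, alpha subunits largely restricted to peripheral sensory neurons, summed to 11.0 CPM (278 and 227 counts), against at most 1.88 elsewhere, and P2rx3, an ATP receptor of sensory neurons, measured 7.58 CPM. Their part in the Scn9a value was not tested. Without that library the log2 fold change was 1.09 (adjusted p = 0.0218), so the gene still rose. The sensory ganglion markers, 7 in number, summed to 25.5 to 33.3 CPM in Intact, 13.2 to 15.2 in sub-SCI, 16.5 to 24.0 in +PBS-4w and 16.4 to 49.4 in +MSC-4w, and none was at 0 in +MSC-4w replicate 2. Of the 6 of them tested, 0 passed in +MSC-4w against +PBS-4w by edgeR. With edgeR on the compared groups the Scn9a adjusted p was 0.0893. The +MSC-4w mean of Scn9a (23.5 CPM) was above that of Intact (19.0) only with replicate 2, and the log2 difference from Intact was 0.31 ± 0.30 with it (adjusted p = 0.457) and -0.19 without it.

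**Figure D4:**
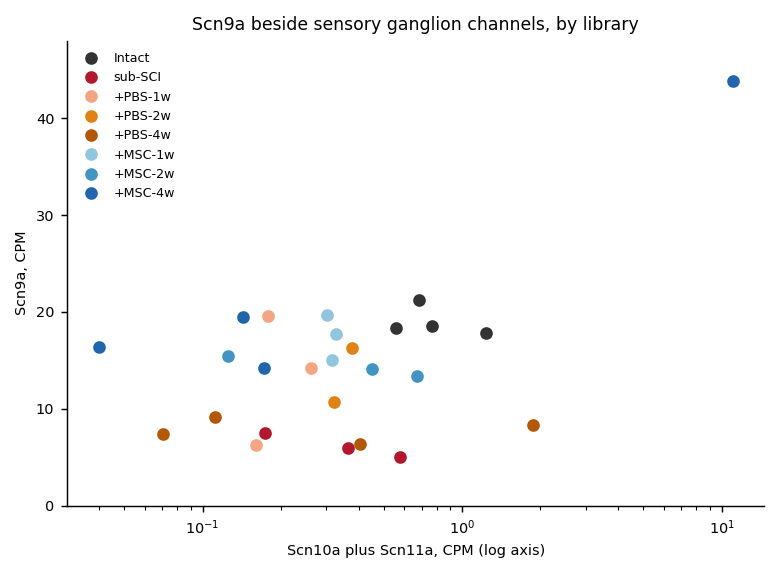
Scn9a (CPM) against summed Scn10a and Scn11a (CPM, log axis), 1 point for each of 26 libraries, marked by group. The point of +MSC-4w replicate 2, at 11.0 and 43.9 CPM, stands apart on both axes.

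Over the 3 weeks together, taken as the mean of the weekly differences, all 8 members rose in +MSC against +PBS (12.3% of genes), and the members' median log2 fold change was 0.77 against -0.0169 over all genes. Scn1a (1.50 ± 0.26, adjusted p = 0.000775 by edgeR), Scn8a (1.34 ± 0.21, adjusted p = 0.000456) and Scn4b (1.14 ± 0.21, adjusted p = 0.00108) were DEGs, a rule met by 1.61% of genes. The remaining log2 fold changes were 0.81 for Scn2a, 0.73 for Scn3a, 0.69 for Scn9a, 0.62 for Scn2b and 0.42 for Scn3b. Scn3b lay nearest the threshold (adjusted p = 0.0391 by edgeR) and passed in 15 of 26 fits with 1 library left out. Ranges did not overlap at any of the 3 weeks for Scn1a, Scn2a, Scn8a and Scn2b, 4 members against 2.68% of genes. The difference between +MSC and +PBS was not shown to vary with the week, since 0 members and 0 genes passed the edgeR test of treatment by week, and 481 genes (2.67%) had an unadjusted p under 0.05. Among the members only Scn9a did (adjusted p = 1), with a difference between +MSC and +PBS that was 1.20 larger on the log2 scale at 4 wpt than at 1 wpt. Without +MSC-4w replicate 2 its log2 differences were 0.39 at 1 wpt and 1.09 at 4 wpt.

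Neuron markers moved with these differences. In +MSC against +PBS, 15 of 15 had a higher mean at each week, and 0, 0 and 3 passed at 1, 2 and 4 wpt and 13 over the 3 weeks, with a median log2 fold change of 0.91. With the neuron markers as covariate, 0 members passed at 4 wpt and 0 over the 3 weeks by edgeR. In that fit the log2 difference over the 3 weeks was 0.95 for Scn8a (adjusted p = 0.113), 0.63 for Scn1a (adjusted p = 0.211) and -0.0408 for Scn3b.

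The make-up of the alpha class was set beside treatment week by week. Scn1a and Scn8a together made up 52.2% to 60.4% of alpha RPKM in +PBS-1w and 66.4% to 69.5% in +MSC-1w. The ranges were 58.4% to 71.0% and 73.9% to 74.3% at 2 wpt, and 55.2% to 65.9% and 67.9% to 74.2% at 4 wpt. They did not overlap at any week, and all +MSC libraries lay below the Intact range of 76.3% to 80.7%. Scn4b made up 78.8%, 59.2%, 52.7% and 52.9% of beta RPKM in +PBS-4w and 70.8%, 68.6%, 64.8% and 73.2% in +MSC-4w, ranges that overlapped through +PBS-4w replicate 1.

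**Figure D5:**
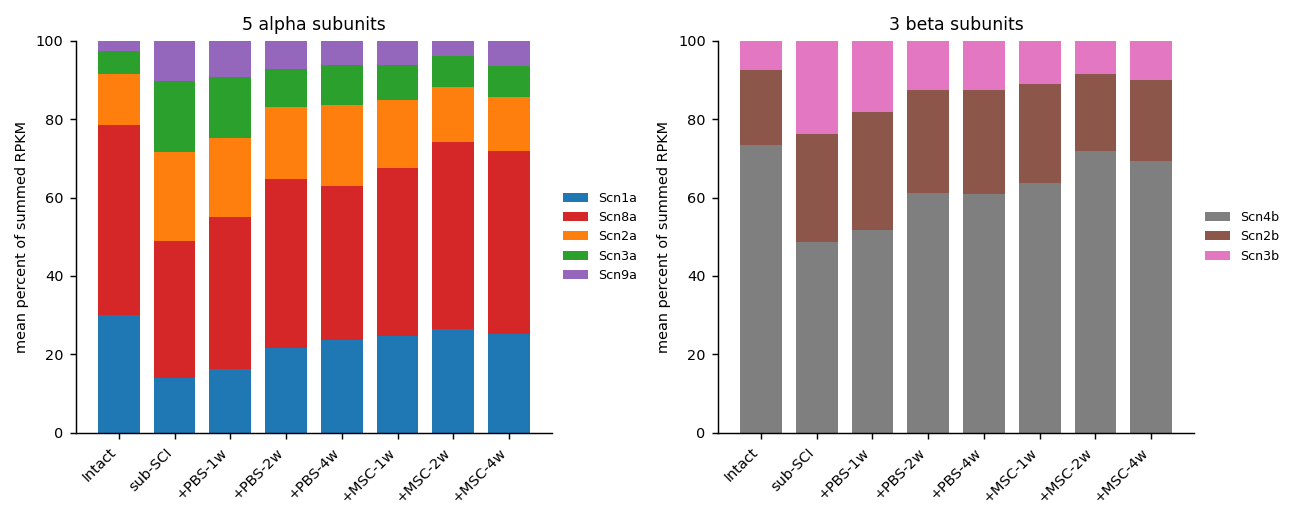
Mean percent of summed RPKM that each subunit took of the 5 alpha subunits (left) and of the 3 beta subunits (right), by group. Scn1a and Scn8a take 78.6% of alpha RPKM in Intact, 48.8% in sub-SCI, 62.9% in +PBS-4w and 71.9% in +MSC-4w.

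hUC-MSC-treated cord was also compared with Intact. In +MSC-1w 7 members passed as lower than Intact (14.8% of genes), in +MSC-2w 3 (6.44%) and in +MSC-4w 5 (13.6%). The log2 difference from Intact was below 0 for 8, 8 and 7 members, with medians of -0.91, -0.83 and -0.87. Over all genes the medians were -0.0137, -0.0347 and -0.00273. The 5 that passed at 4 wpt were Scn1a (log2 fold change -1.23 ± 0.38, adjusted p = 0.0170 by edgeR), Scn2a (-0.85), Scn8a (-1.01), Scn2b (-0.89) and Scn4b (-1.04). Mean levels in +MSC-4w were 42.7% of Intact for Scn1a, 49.6% for Scn8a and 48.5% for Scn4b, against 13.5%, 14.6% and 23.3% in +PBS-4w. The neuron markers were at 59.7% and 28.3%. The latter mean included +PBS-4w replicate 1 at 9183 CPM, while the group median was 3069 CPM, beside 15997 CPM in Intact. Relative to sub-SCI, all 8 members rose in +MSC-4w (22.2% of genes), led by Scn1a (3.16 ± 0.46) and Scn8a (2.96 ± 0.37). The +MSC-2w count ran from 1 to 8 across alternatives, and the +MSC-4w count was 2 without +MSC-4w replicate 2 or replicate 3. Without +MSC-1w replicate 3 the +MSC-1w count was 4.

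Other sodium channel genes were read beside the members. Nalcn, a sodium leak channel, fell in sub-SCI against Intact, with a log2 fold change of -2.43, and it also fell in +PBS-4w against Intact. Scn4a, the alpha subunit of skeletal muscle, Scn7a, Scn10a and Scn11a did not pass in sub-SCI against Intact. In +PBS-4w against Intact Scn7a, a sodium channel that glia also express, rose by 2.76 on the log2 scale (adjusted p = 0.00275 by edgeR). Scn7a ran from 5.95 to 34.0 CPM in Intact and from 29.1 to 278 in +PBS-4w. The 6 Schwann cell markers summed to 134 to 1608 CPM in Intact and 1931 to 4056 in +PBS-4w, 4 of 6 rose, and their part in the Scn7a value was not tested. None of these 5 genes passed in +MSC against +PBS over the 3 weeks by edgeR.

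Another list held genes whose products anchor or modulate the channels. Of 10, 8 fell in sub-SCI against Intact (30.9% of genes) and 9 in +PBS-4w against Intact (23.9%). Fgf14 (-3.19) and Fgf13 (-2.80), intracellular FGF-like proteins that bind the alpha subunit, had the largest log2 fold changes in sub-SCI, and Ank3, which encodes ankyrin-G, had one of -1.95. Nfasc (-0.33), a node adhesion molecule that oligodendrocytes also make, and Nedd4l (0.00665), a ubiquitin ligase of the channels, did not pass. In +MSC-4w against +PBS-4w 5 rose (3.07% of genes): Ank3 (0.87), Fgf12 (0.97), Fgf14 (1.14), Nrcam (0.58) and Nedd4l (0.37). Over the 3 weeks 7 of 10 rose (12.3% of genes), with Fgf14 at 0.98 and Sptbn4, beta-IV spectrin, at 0.84.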

How the data were processed

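The deposited files hold raw counts of read pairs per gene for 26 poly(A) RNA libraries, and each library's own file was equal to its column of the joint table. Per the study's methods, the authors trimmed reads with Trim Galore (0.5.0), discarded reads with a match to human (GRCh38), placed the rest on rat (Rnor6) with HISAT2 (2.1.0), kept proper pairs with SAMtools (1.9) and counted with featureCounts (1.6.4). The annotation release and the strand setting are not given in the sources used here, so reads that overlapping or antisense genes share, and reads that similar alpha subunits share, cannot be told apart. Removal of human reads also takes rat reads that match both genomes.

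Groups came from the labels. The methods count 3 libraries in each group except 4 in Intact, +PBS-4w and +MSC-4w and 2 in +MSC-2w, while the labels give 2 in +PBS-2w and 3 in +MSC-2w, and the labels were followed.

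Counts were fitted with edgeR (4.0.16, quasi-likelihood, in R 4.3.3) in 1 model of 8 groups, with library sizes scaled by the trimmed mean of M-values and edgeR's filterByExpr, which left 17990 genes. The script was tested on simulated data, in which, of 200 genes with a log2 fold change of 1 between +MSC and +PBS, 94 were recovered at 1 wpt, 63 at 2 wpt, 109 at 4 wpt and 143 over the 3 weeks. RPKM used the deposited gene lengths. The genes named are the 8 members, lists of other sodium channel genes and of 10 partners, and the 3 genes most correlated with each member; some of these genes are not reported here. Members and lists were chosen with earlier results of these data known. Alternatives were DESeq2 (1.42.0), fits of the compared groups alone, median-of-ratios scaling, other filters on low counts, a replicate block, a term for replicate 1, the neuron markers as covariate, and each library left out in turn.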

Additional observations from a re-analysis of the deposited data

Results flagged for a closer look

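Among the 24 sets of 4 libraries (8 members in Intact, +PBS-4w and +MSC-4w), 2 held a library far from the other 3, both in +PBS-4w. Chance alone gives about 1 in 20. Scn1a in +PBS-4w replicate 2 was 30.0 CPM beside 40.1, 41.6 and 41.9, so that its gap to the nearest library took 0.848 of the group's range. Scn4b in +PBS-4w replicate 1 was 231 CPM beside 91.4, 94.6 and 105, a gap of 0.905 of the range.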

How the results depend on the processing

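In sub-SCI and +PBS-4w against Intact and +MSC-4w against sub-SCI, all 8 members passed whichever library was left out. Leaving out 1 library at a time gave 7 to 8 members at 1 wpt and 3 to 7 at 2 wpt for +PBS against Intact, 0 to 4 at 1 wpt, 0 at 2 wpt and 2 to 8 at 4 wpt for +MSC against +PBS, and 6 to 8 over the 3 weeks. It gave 4 to 7, 1 to 6 and 2 to 7 for +MSC-1w, +MSC-2w and +MSC-4w against Intact, 2 to 5 for +PBS-4w against sub-SCI, and 0 for treatment by week. Scn8a and Scn9a passed at 4 wpt in 26 of 26 such fits, and Scn1a in 24.

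With the neuron markers as covariate, the counts were 4, 4 and 3 for +PBS-1w, +PBS-2w and +PBS-4w against Intact, 0 for +MSC-4w against +PBS-4w, 0 over the 3 weeks, and 3, 1 and 1 for +MSC-1w, +MSC-2w and +MSC-4w against Intact. Scn9a then reversed to 0.19 (+PBS-1w) and 0.000481 (+PBS-2w) against Intact, -0.18 in +MSC-2w against +PBS-2w and 0.23 in +MSC-1w against Intact, and Scn3b to -0.14 at 1 wpt, -0.0651 at 2 wpt and -0.0408 over the 3 weeks for +MSC against +PBS.

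DESeq2 on all libraries gave 4 at 1 wpt and 8 at 4 wpt for +MSC against +PBS and 6 for +MSC-2w against Intact, and on the compared groups 4 at 1 wpt, 3 at 2 wpt and 8 for +MSC-2w against Intact. edgeR on the compared groups gave 2 at 1 wpt, 1 at 4 wpt, 8 for +MSC-2w against Intact and 0 for +PBS-4w against sub-SCI. For +MSC-2w against Intact (3 members as reported), no filter gave 1, at least 10 counts in every library 5, and a term for replicate 1 gave 5, while that term gave 8 for +MSC-4w against +PBS-4w.

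The replicate numbers were not taken as pairs, since in no comparison did every same-numbered pair of deviations correlate over 0.1. Against that choice, 15 of 26 libraries correlated best with a library of their own number. Pairs of replicate 1 correlated from -0.0781 (+MSC-2w against +PBS-2w) to 0.317 (+MSC-4w against Intact). With a replicate block, 5 members passed in +MSC-2w against Intact, and no other count of members moved by over 1.5 times.

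Alternatives chosen after seeing the data left out libraries. Without +PBS-4w replicate 1 and +MSC-4w replicate 2, 3 passed at 1 wpt and 6 in +MSC-2w against Intact, and Scn9a in +MSC-4w against Intact went to -0.19, as it did without +MSC-4w replicate 2 alone. With libraries other than replicate 1, the counts were 4 for +PBS-2w against Intact, 5 over the 3 weeks, 4 for +MSC-1w against Intact and 3 for +PBS-4w against sub-SCI, and in +MSC-2w against +PBS-2w Scn9a went to -0.25 and Scn3b to -0.0881. Leaving out 1 library at a time, Scn9a there ran from -0.18 (without +PBS-2w replicate 1) to 0.42, Scn9a in +MSC-4w against Intact from -0.19 to 0.49, and Scn3a in +PBS-4w against sub-SCI from -0.0062 (without +PBS-4w replicate 3) to 0.47. The cause of these changes was not tested. Every member had at least 98 counts in every library.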

Other observations

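The genes whose log2 CPM followed each member most closely over the 26 libraries were found by Pearson's r, as a description with no test, since the libraries share groups and a common loss of neuron transcripts. The closest to Scn8a were Camta1 (r = 0.993), Nrxn3 (0.992) and Dzank1 (0.990). Those closest to Scn1a were Paqr9 (0.990), Atp2b3 (0.988), a calcium pump, and Sh3gl2 (0.988), which encodes an endophilin. Fads6 (0.989) and Elmod1 (0.988) followed Scn4b closely. The closest to Scn2a were Chd5 (0.989), Arhgap44 (0.988) and LOC304725 (0.986). For Scn3a they were Prkacb (0.970), St8sia3 (0.964) and Apba1 (0.962). Lonrf2 (0.981), Ndst4 (0.974) and Rab3c (0.972) were closest to Scn2b. Rgs17 (0.961), Gria2 (0.960), an AMPA receptor subunit, and Rims3 (0.954) were closest to Scn3b. Scn9a had the lowest values, with Gna14 (0.899), Chrnb2 (0.880), a nicotinic receptor subunit, and Npy2r (0.872). Between members, r ran from 0.713 for Scn9a with Scn4b to 0.977 for Scn1a with Scn4b.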
